A study of Mus musculus with 4 samples.

Results

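The 10 genes of the AP-1 transcription factor family described here are Fos, Fosb, Fosl1, Fosl2, Jun, Junb, Jund, Atf3, Batf and Batf3. They were chosen by gene symbol, and each had 1 row in a table of 22205 rows that stand for 19504 named genes. The table holds 4 Affymetrix arrays of sorted mouse ILC3s, the group 3 innate lymphoid cells, which lack antigen receptors and supply mucosal tissue with IL-22 and IL-17. Each genotype has 1 array: circZbtb20+/+ mice, circZbtb20-/- mice that lack a circular RNA made from the Zbtb20 gene, Nr4a1+/+ mice, and Nr4a1-/- mice that lack an orphan nuclear receptor. No treatment is named for any group. All cells were sorted by flow cytometry as lineage-negative, CD90 high and CD45 low. The labels used here name no tissue, age or number of mice for an array and no allele for either knockout. The number of arrays limits the precision, and no value below has a replicate error.

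AP-1 is a dimer of basic leucine zipper (bZIP) proteins that binds DNA at short palindromic sites. Fos proteins cannot pair with themselves and need a Jun partner, whereas Jun proteins can pair with each other. Fos, Fosb, Jun, Junb and Atf3 are immediate-early genes, transcribed within minutes of a stimulus through MAP kinases and factors such as SRF, and their mRNAs are short-lived. Batf and Batf3 encode small proteins of a zipper and little else, which pair with Jun proteins and act with IRF factors in lymphocytes and dendritic cells. BATF is known for its need in cells that make IL-17.

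Upstream sequence is shown for the genes whose values the results turn on, with the capitals marking a match to a motif searched below. Each runs 5′ to 3′ over the 250 bases before the transcription start in RefSeq, build GRCm38.p6. Fos lies on the plus strand at chr12:85473640-85473889, Fosb on the minus strand at chr7:19310046-19310295 and Jun on the minus strand at chr4:95052223-95052472. Atf3 lies on the minus strand at chr1:191183334-191183583 and Batf on the plus strand at chr12:85686470-85686719.
Fos: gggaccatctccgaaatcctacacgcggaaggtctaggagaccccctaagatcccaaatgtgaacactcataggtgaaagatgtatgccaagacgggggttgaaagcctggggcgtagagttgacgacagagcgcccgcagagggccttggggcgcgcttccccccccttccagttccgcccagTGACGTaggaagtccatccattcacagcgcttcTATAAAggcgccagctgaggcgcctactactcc
Fosb: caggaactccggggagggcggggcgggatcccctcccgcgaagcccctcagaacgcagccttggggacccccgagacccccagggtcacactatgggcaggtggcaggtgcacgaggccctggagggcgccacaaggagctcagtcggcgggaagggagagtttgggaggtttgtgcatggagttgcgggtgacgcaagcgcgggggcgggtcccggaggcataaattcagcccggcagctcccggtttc
Jun: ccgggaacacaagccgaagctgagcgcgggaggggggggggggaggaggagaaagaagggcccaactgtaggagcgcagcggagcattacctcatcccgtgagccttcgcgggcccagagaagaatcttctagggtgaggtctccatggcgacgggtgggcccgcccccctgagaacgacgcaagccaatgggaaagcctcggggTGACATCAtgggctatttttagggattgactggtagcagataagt
Atf3: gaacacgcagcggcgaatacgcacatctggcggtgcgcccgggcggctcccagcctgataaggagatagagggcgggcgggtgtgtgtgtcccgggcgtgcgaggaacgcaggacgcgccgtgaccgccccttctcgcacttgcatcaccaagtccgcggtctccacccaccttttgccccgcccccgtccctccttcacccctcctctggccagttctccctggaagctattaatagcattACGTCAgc
Batf: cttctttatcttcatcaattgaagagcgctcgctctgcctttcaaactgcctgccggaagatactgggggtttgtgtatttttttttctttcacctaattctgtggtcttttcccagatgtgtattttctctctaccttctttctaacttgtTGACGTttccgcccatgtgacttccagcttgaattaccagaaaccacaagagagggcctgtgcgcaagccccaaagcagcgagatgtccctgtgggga

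The promoters of 9 of the 10 genes matched by symbol, all but that of Fosl1. The search covered both strands for TGACGT, the core of the cyclic AMP response element, TGACNTCA, a longer form of it, TGACTCA, the AP-1 site, the CArG box that SRF binds, AAAGGTCA, the site of NR4A monomers, and TATAAA, the TATA box. The first motif lies inside the next where N is G, and the others do not contain each other. TGACGT was in 3 of the 9 promoters, those of Fos, Batf and Atf3, the last on the minus strand 8 to 3 bases before the start. It is in 6.47% of all 32851 promoters of this length. Jun held TGACATCA 45 to 38 bases before its start, a form of TGACNTCA, which 7.49% of all promoters hold. Fos also held TATAAA, 33 to 28 bases before its start, present in 12.4% of all. The AP-1 site, the CArG box and AAAGGTCA were in 0 of the 9 and in 4.46%, 1.47% and 1.34% of all promoters. These matches describe the letters of a short window.

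The values are log2 expression values as deposited, in which a step of 1 is nominally 2-fold. Array medians over all rows lay between 4.34 and 4.51, and the 95th percentiles between 11.38 and 11.89. A gene is called higher or lower here when it differed by at least 1 with the higher of the values at or above that array's median. All 10 genes passed that filter in every comparison, and none was at the table's highest value of 19.93, which several rows share as a ceiling. Nr4a1 itself was at 11.63 in the Nr4a1 knockout and at 18.11 in its wild type, in the direction of the label. That lower value still equalled the 95th percentile of its array, and the related Nr4a2 and Nr4a3 were lower there by as much, at -7.81 and -7.36 against the own wild type. No value stands for the circular RNA. Markers showed the Nr4a1 knockout array to stand apart from the other arrays. All 16 measured T cell markers were at or above the array median there, with a median of 15.12 and a range of 7.51 to 18.92. List medians on the other arrays were 4.56 to 5.49. The greatest gains in the Nr4a1 knockout, against its own and the other wild type, were of Cd8b1, by 13.73 and 15.45, and Themis, by 12.48 and 12.97. Dntt followed, by 12.24 and 12.06, and Lef1, by 11.95 and 12.25. The 18 measured ILC3 markers had a median of 5.52 there, with a range of 3 to 19.93, and medians of 12.36 to 14.84 elsewhere. Of them 12 were lower than both wild types, Kit, Ncr1 and Il23r among them, and 3 higher, which were Ltb, Tox and Cd4. The shares over all genes were 15.7% lower and 28.4% higher. Il22 was at the ceiling on that array, Id2 at 15.48 and Il7r at 13.40. Most but not all of these markers thus went against the ILC3 label. Ptprc, the gene of CD45, was at 15.93 on the Nr4a1 knockout array and at 11.89 to 12.66 on the others. Thy1, the gene of CD90, was at 16.00 on that array and at 10.41 to 12.36 on the others. With 1 array per genotype, loss of Nr4a1 and the content of that sample cannot be told apart in any result on the Nr4a1 knockout array. Fewer cells of a type and less RNA per cell cannot be told apart either.

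In both wild types most AP-1 genes were among the brightest rows of the array. Of the 10 genes 7 were above the 95th percentile in the circZbtb20 wild type and 7 in the Nr4a1 wild type. Batf3 was the lowest, at 4.68 and 5.19, close to the array medians. Between the wild types 4 of the 10 were higher in the Nr4a1 wild type and 0 lower, where 8.48% of all genes past the filter were higher and 6.77% lower. Those 4 were Fosb, by 2.37, Batf, by 1.94, Jun, by 1.75, and Fos, by 1.30. Over all 10 genes the median difference was 0.66, beside 0.05 over all genes tested. This offset was not particular to AP-1. Of 29 immediate-early genes outside AP-1 past the filter, 10 were higher and 2 lower in the Nr4a1 wild type. The median difference of that list was 0.615. The wild types therefore did not give the same baseline for the AP-1 genes, and each knockout is set against both below.

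**Figure D1:**
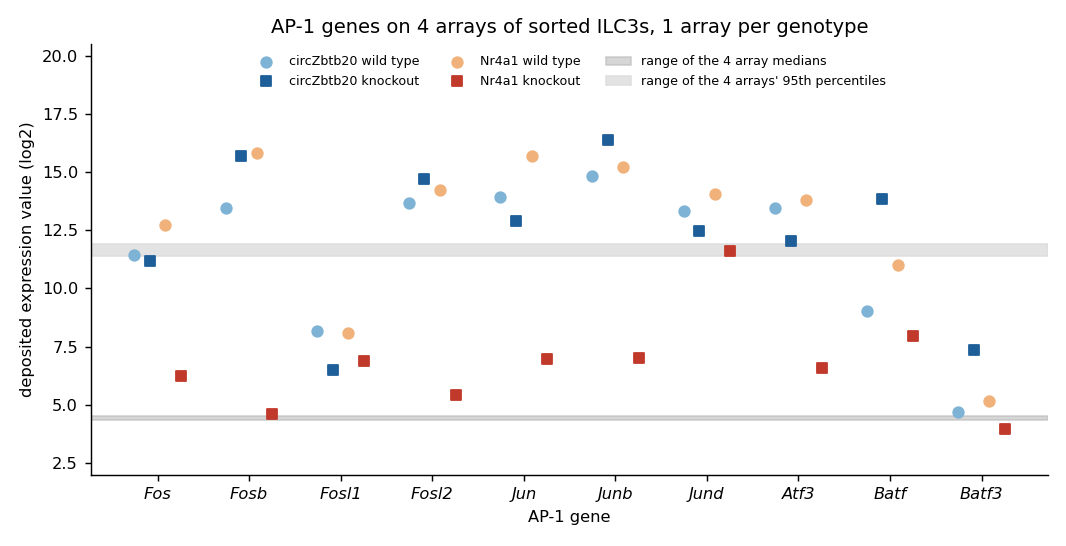
Deposited log2 expression values of the 10 AP-1 genes on the 4 arrays, 1 point per array (circles wild types, squares knockouts), with bands for the range of the 4 array medians and of the 95th percentiles. The Nr4a1 knockout is the lowest point for 9 of the 10 genes, and Fosl1 is lowest in the circZbtb20 knockout, at 6.52.

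The circZbtb20 knockout did not shift the family in 1 direction. Against its own wild type 5 genes were higher and 3 lower, where the same rule called 27.3% of all genes higher and 19.4% lower. Batf and Batf3 were the members with the greatest gain, by 4.78 and 2.70. Against the Nr4a1 wild type 3 were higher and 5 lower, with 26.4% of all genes higher and 21% lower. Batf, Batf3 and Junb were higher than both wild types by at least 1, and Fosl1, Jun and Atf3 lower than both. Of all genes 22.3% were higher than both wild types and 14.4% lower, so with so few genes 3 of 10 either way is no result about the family as a group. The median over the 10 genes was 0.39 against the own wild type, beside 0.17 over all genes, and -0.84 against the other wild type, beside 0.11.

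The array of the Nr4a1 knockout was low for the whole family. All 10 genes were lower than in its own wild type, by 1.18 to 11.18, where 20.8% of all genes were lower and 31.9% higher. Against the circZbtb20 wild type 9 were lower, with 20.4% of all genes lower and 32.7% higher, and Batf3, at -0.71, did not reach the size of a call. Those 9 were thus lower than both wild types, as were 15.7% of all genes, while 28.4% of all genes were higher than both. The median over the 10 genes was -6.84 against the own wild type and -6.03 against the other, beside 0.29 and 0.30 over all genes. Above the 95th percentile of this array lay 0 of the 10 genes. These values come from the array with the T cell markers at a median of 15.12, whose part in the result was not tested.

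**Figure D2:**
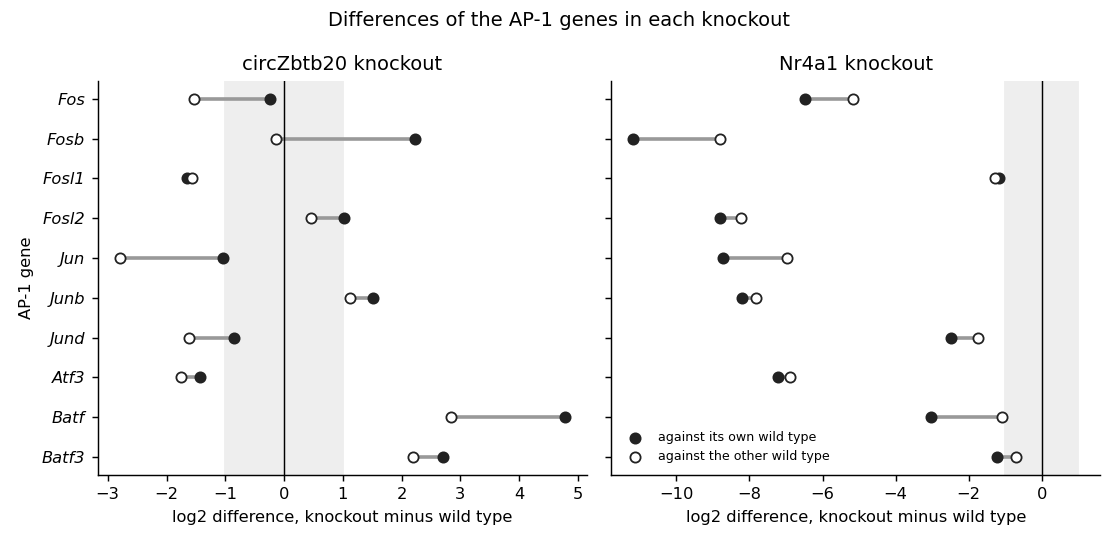
Log2 difference of each AP-1 gene in the circZbtb20 knockout (left) and the Nr4a1 knockout (right), against the knockout's own wild type (filled) and the other wild type (open). The shaded band covers differences under 1 in size and the panels have separate scales. Points spread to both sides of 0 on the left, from -2.79 to 4.78, and all lie under 0 on the right, from -11.18 to -0.71.

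Among the Fos proteins, Fos is the founding member and the usual first partner of Jun after a stimulus. Its value was 11.43 in the wild type and 11.19 in the knockout of the circZbtb20 pair, and 12.73 in the wild type and 6.26 in the knockout of the Nr4a1 pair. The Nr4a1 knockout was by far the lowest array, and the circZbtb20 knockout was close to its own wild type but called lower than the Nr4a1 wild type. Its differences were -0.24 and -1.54 in the circZbtb20 knockout against its own and the other wild type, and -6.47 and -5.17 in the Nr4a1 knockout.

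Fosb, a paralog with a shorter splice form known as delta FosB, was at 13.44, 15.67, 15.81 and 4.63 in that order of arrays, which is kept for the genes that follow. It differed most of the 10 between the wild types and most of the 10 in the Nr4a1 knockout. There it was lower by -11.18 and -8.81, the 19th lowest of 11197 genes against its own wild type. The circZbtb20 knockout was above its own wild type by 2.23 but at -0.14 against the other, so that call rests on the low value of 1 wild type.

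Fosl2, which encodes the Fos-related protein FRA-2 that restrains part of the Th17 programme, was at 13.67, 14.69, 14.24 and 5.44. The first 3 arrays lay close together and the Nr4a1 knockout far under them, at -8.80 and -8.23. The circZbtb20 knockout just reached the size of a call against its own wild type, at 1.02, and was at 0.45 against the other. Fosl1, which encodes FRA-1, was at 8.18, 6.52, 8.08 and 6.90. Its wild types were nearly equal and both knockouts were under them. It was lower by -1.66 and -1.56 in the circZbtb20 knockout and by -1.18 and -1.28 in the Nr4a1 knockout, which is little beside the other Fos genes on that array.

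Among the Jun proteins, Jun encodes c-JUN, the target of the JNK kinases. It was at 13.94, 12.90, 15.69 and 6.97. The circZbtb20 knockout was under both wild types, by -1.04 and -2.79, the first close to the limit of a call. The Nr4a1 knockout was lower by -8.72 and -6.97.

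Junb, the main Jun partner of BATF in IL-17-producing T cells, was at 14.84, 16.36, 15.23 and 7.02. It was highest in the circZbtb20 knockout, by 1.52 and 1.13, and lower in the Nr4a1 knockout, by -8.21 and -7.82. Its wild types differed by 0.39, less than any of these differences. Junb and Jun therefore parted in the circZbtb20 knockout. Within an array, the gap of Junb over Jun was 0.90 in the circZbtb20 wild type and 3.46 in its knockout, a widening of 2.56, or 3.92 when the other wild type is the reference. Such a change of gap does not depend on the level of the whole array.

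Jund, the Jun gene known for steady expression in resting cells, was at 13.32, 12.46, 14.07 and 11.59. It kept the highest percentile of the family in the Nr4a1 knockout, above 94.9% of the rows of that array, against 97.5% and 97.9% in the wild types. It was lower there by -2.48 and -1.73. Beside it Jun moved from the 98.9th to the 75.2nd percentile against its own wild type and Junb from the 98.7th to the 75.5th. The gap of Jund over Jun changed by 6.24 against the own wild type and by 5.24 against the other. The circZbtb20 knockout was under both wild types, by -0.86 and -1.61.

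Atf3, a stress-induced member that often represses its targets, was at 13.47, 12.04, 13.79 and 6.57. Its wild types lay 0.32 apart and both knockouts were under them. The circZbtb20 knockout was lower by -1.43 and -1.75, and the Nr4a1 knockout by -7.22 and -6.90.

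Batf was at 9.05, 13.83, 10.99 and 7.95. The circZbtb20 knockout was above both wild types and the Nr4a1 knockout under both. The gain of 4.78 was the 68th highest of 11122 genes against the own wild type, and the gain of 2.84 the 560th highest of 11154 against the other. Part of that spread lies in the wild types, 1.94 apart. The Nr4a1 knockout was lower by -3.04 and -1.10. Batf3, known for its need in cross-presenting dendritic cells, was at 4.68, 7.38, 5.19 and 3.97. The circZbtb20 knockout was above both wild types, by 2.70 and 2.19. The Nr4a1 knockout was under its array median, with differences of -1.22 and -0.71, from wild-type values that were low themselves.

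Batf gained on Jun within the array in both knockouts. Batf stood -4.89 from Jun in the circZbtb20 wild type and 0.93 from it in the knockout, a change of 5.82. In the Nr4a1 pair the gap went from -4.70 to 0.98, a change of 5.68. The circZbtb20 change came with Batf higher and Jun lower, the Nr4a1 change with both genes lower and Jun the more so. In the Nr4a1 knockout the gain on Jun was not particular to Batf. Against the own wild type Jund gained 6.24 on Jun, and Fosl1, at -1.18, and Batf3, at -1.22, fell less than Batf, at -3.04. The gap of Batf to Fos changed by 5.02 in the circZbtb20 knockout and by 3.43 in the Nr4a1 knockout. These pairs were picked after their values were seen.

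When both wild types were treated as 1 group, a limma fit over all 19504 genes gave the only p-values. Only the wild types inform its residual error, with 1 residual degree of freedom, and each knockout is assumed to vary as they do. The fit moderates that error towards the spread over all genes, with 2.54 prior degrees of freedom. Each SE and p-value therefore rests on both. In the Nr4a1 knockout 6 of the 10 genes passed an adjusted p of 0.05, all lower, where 3.86% of all genes passed as lower and 7.32% as higher. They were Junb, with a log2 difference of -8.02 ± 0.34 (SE) and an adjusted p of 0.0154 by limma, Fosl2, Atf3, Jun, Fosb and Fos, the last with -5.82 ± 0.67 (SE) and an adjusted p of 0.0304 by limma. Jund, Fosl1, Batf3 and Batf did not pass, with adjusted p-values by limma from 0.0792 to 0.283. In the circZbtb20 knockout 0 of the 10 genes and 0% of all genes passed the limma fit, with 5 of the 10 at an unadjusted p under 0.05 and 24.0% of all genes. Batf3 had the smallest adjusted p of the 10, 0.0683 by limma, with 2.44 ± 0.37 (SE).

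The other measured bZIP genes, from which AP-1 proteins draw some of their partners, numbered 29. Of the 24 past the filter, 7 were higher and 3 lower than both wild types in the circZbtb20 knockout, near the shares over all genes of 22.3% and 14.4%. Bach1, a repressor that binds with small Maf proteins, was higher by 3.65 and 3.36, and Atf6, a sensor of protein folding stress, by 3.53 and 4.15. Nfil3, a factor needed for the development of innate lymphoid cells, was higher by 3.12 and 2.34. Jdp2, which encodes a Jun dimerization protein that represses AP-1 sites, was lower by -3.26 and -3.06. Jdp2 is the only protein-coding gene between Fos and Batf in the RefSeq gene order. These neighbours did not move alike in that knockout, where Fos differed by -0.24, Jdp2 by -3.26 and Batf by 4.78 against the own wild type.

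In the Nr4a1 knockout 14 of the 24 bZIP genes past the filter were lower than both wild types and 3 higher, beside 15.7% and 28.4% of all genes. Nfil3 was at 4.35 against 13.46, lower by -9.11 and -8.33. Maf was lower by -6.91 and -5.50, Jdp2 by -5.24 and -5.44, and Maff, a small Maf gene, by -5.05 and -5.03. The 3 higher, named after their values were seen, were Atf1, by 1.97 and 1.97, Bach1, by 2.16 and 2.45, and Bach2, which competes with AP-1 at its sites in lymphocytes, by 1.60 and 1.61.

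Signalling genes that act above AP-1 were taken as the ERK arm and the JNK and p38 arms. Of 11 measured genes of the ERK arm 5 were higher and 1 lower than both wild types in the Nr4a1 knockout, where 28.4% of all genes were higher and 15.7% lower. Elk4, a partner of SRF at serum response elements, was at 14.59 against 11.11 and 10.03, higher by 3.48 and 4.56. Srf was at 9.38 against 6.47 and 6.45, higher by 2.91 and 2.93, on the array where Fos was lowest. Elk3 was higher by 2.28 and 1.57, and the kinase gene Braf lower by -2.67 and -3.05. The circZbtb20 knockout had 3 of 11 higher and 2 lower, near the 22.3% and 14.4% of all genes, with Araf higher by 2.63 and 2.27, Map2k1 by 2.36 and 1.46 and Elk1 by 1.48 and 1.97, and Elk4 lower by -1.87 and -2.95.

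Of 15 measured genes of the JNK and p38 arms, 12 past the filter in the circZbtb20 knockout, 5 were higher than both wild types and 0 lower, beside 22.3% and 14.4% of all genes. Mapkapk2, a kinase below p38 that stabilises cytokine mRNAs, was at 15.54 against 10.07 and 9.39, higher by 5.47 and 6.15. Mapk8, which encodes JNK1, was higher by 3.26 and 2.68, Mapk14, which encodes p38 alpha, by 3.10 and 2.32, and Mapk10 by 2.05 and 2.56. Jun, the JNK target, was lower on that same array. The Nr4a1 knockout had 2 of 13 higher than both wild types and 4 lower, beside 28.4% and 15.7% of all genes. Mapk11, which encodes p38 beta, was higher by 5.16 and 4.67, and Map2k6 by 3.08 and 3.46. Mapkapk2 was lower by -4.28 and -4.96 and Map3k8 by -3.76 and -3.18.

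Of 20 measured genes known as AP-1 targets, 9 of the 14 past the filter were lower and 1 higher than both wild types in the Nr4a1 knockout, beside 15.7% and 28.4% of all genes. Ptgs2, the inducible cyclooxygenase, was at 2.73 against 16.85 and 16.40, lower by -14.12 and -13.67. Csf2, which encodes GM-CSF, was lower by -12.34 and -11.31, Il6 by -11.08 and -9.35, and the adhesion receptor gene Cd44 by -6.28 and -4.87. Vim, the 1 higher, was at 12.52 against 10.66 and 10.71. The circZbtb20 knockout had 6 of 16 lower and 2 higher, beside 14.4% and 22.3% of all genes. Vim was lower by -5.36 and -5.31, Il6 by -3.46 and -5.19 and Tgfb1 by -3.31 and -3.08, while Cd69, an early activation marker, was higher by 2.31 and 1.50.

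Of 14 measured partners and targets of BATF, 13 were past the filter. In the circZbtb20 knockout, where Batf was higher, 5 of the 13 were higher than both wild types and 5 lower. The shares over all genes were 22.3% and 14.4%. Il17a was at 15.79 against 5.10 and 4.60, Il17f higher by 7.71 and 8.90, and Ccr6, a chemokine receptor of IL-17-producing cells, by 2.81 and 2.71. Il10 was lower by -2.77 and -3.29. The Nr4a1 knockout had 10 of 13 lower than both wild types and 0 higher, beside 15.7% and 28.4% of all genes. Il23r was lower by -10.70 and -11.65, Il1r1 by -9.09 and -9.92, Ctla4 by -6.37 and -6.06 and Prdm1 by -4.82 and -4.18. Il17a, Il17f, Il22, Il23r, Ccr6 and Il1r1 are also ILC3 markers, so the BATF list and the ILC3 list are not independent. The gains named for the circZbtb20 knockout, of Il17a, Il17f and Ccr6, are all among these shared genes. The BATF list was low on the array where the 18 ILC3 markers had a median of 5.52.

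**Figure D3:**
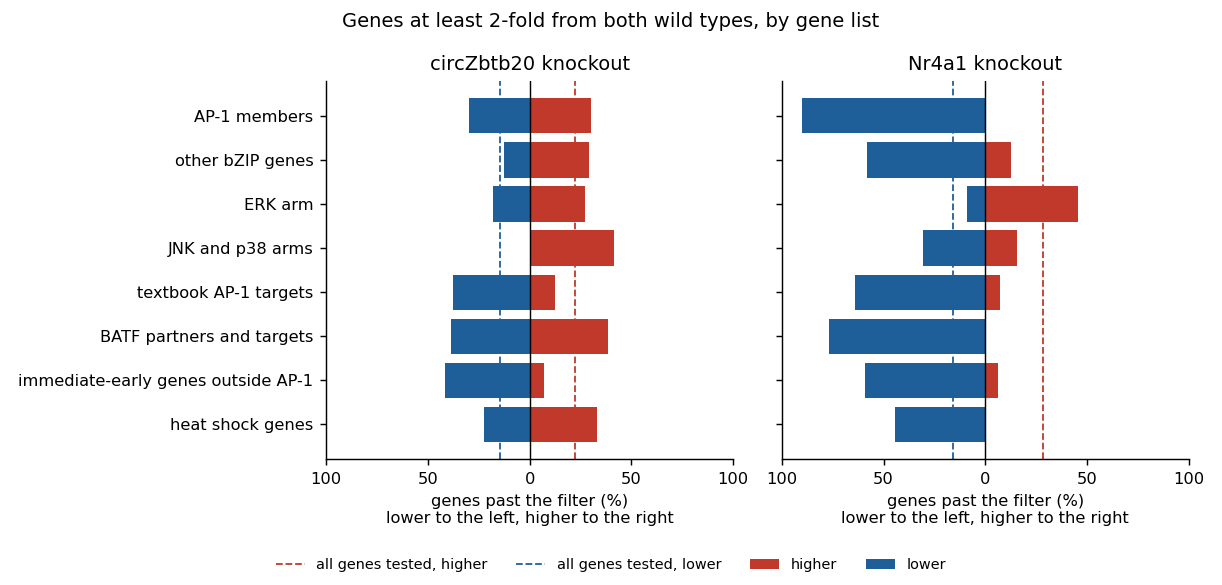
Share of genes, among those that passed the low-value filter, that were at least 2-fold higher (red, right) or lower (blue, left) than both wild types, for the AP-1 genes and 7 further lists, with dashed lines at the share of all genes tested. In the Nr4a1 knockout the AP-1 genes are 9 of 10 lower and the ERK arm 5 of 11 higher. In the circZbtb20 knockout the AP-1 genes are 3 higher and 3 lower.

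Immediate-early genes outside AP-1 were mostly lower in the Nr4a1 knockout too. Of 32 genes, Nr4a1 among them, 19 were lower and 2 higher than both wild types, beside 15.7% lower and 28.4% higher over all genes. Their median difference was -3.34 against the own wild type. Rgs1, which dampens G protein signals, was lower by -10.10 and -10.12, Gadd45b by -9.60 and -9.05, Nr4a2 by -7.81 and -7.10 and Rgs2 by -7.55 and -6.21. Several others, named after their values were seen, were not lower. Egr1 was at 15.57 against 14.54 and 14.93, and Egr2, a zinc finger factor induced by antigen receptor signals, at 13.61 against 8.42 and 7.83, higher by 5.19 and 5.78. Btg2 was at 11.60 against 11.81 and 11.38, and Cd69 at 15.61 against 15.77 and 14.96.

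In the circZbtb20 knockout 12 of the 29 immediate-early genes past the filter were lower and 2 higher than both wild types. Egr1 was at 9.07, lower by -5.86 and -5.47, and Zfp36, which encodes an mRNA decay factor, at 7.22, lower by -5.56 and -7.50. Ccn1, a secreted matrix protein gene, was lower by -4.15 and -2.77, and Nr4a1 by -3.95 and -2.13. Its relatives, named after their values were seen, were lower too, Nr4a3 by -3.73 and -3.70 and Nr4a2 by -1.88 and -2.59. Nr4a1 and Nr4a3 were at the ceiling in the circZbtb20 wild type, so their differences from it are bounds. Of the AP-1 genes, Jun, Atf3 and Fosl1 were lower than both wild types in the circZbtb20 knockout as Egr1 was, and Junb, Batf and Batf3 were higher. Over all genes 14.4% were lower and 22.3% higher.

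**Figure D4:**
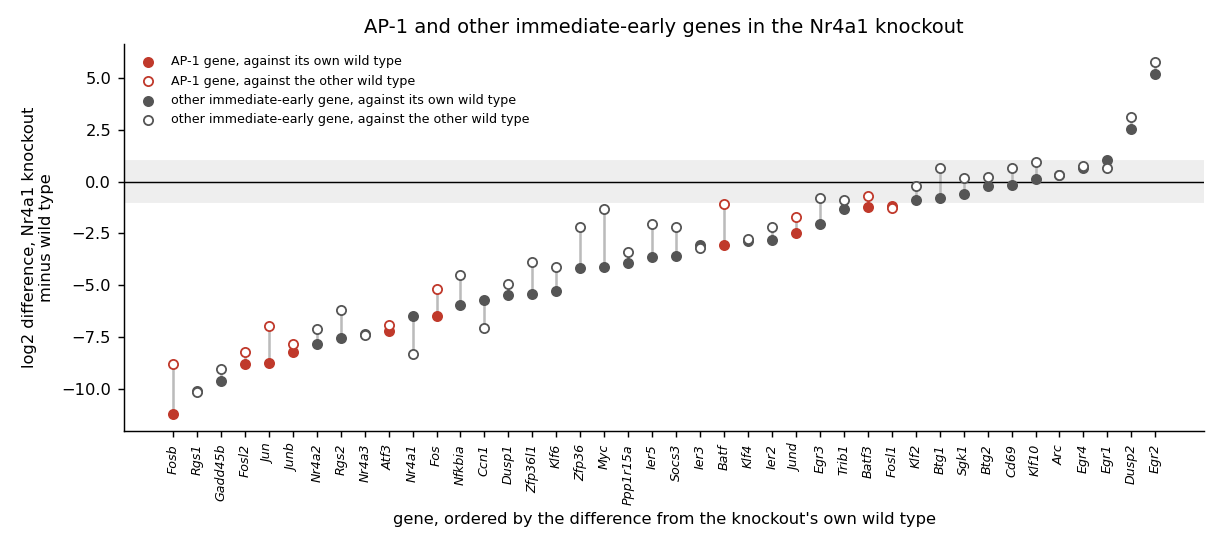
Log2 difference of the 10 AP-1 genes (red) and 32 other immediate-early genes (grey) in the Nr4a1 knockout, against its own wild type (filled) and the other wild type (open), ordered by the former; the shaded band covers differences under 1 in size. Fosb is lowest at -11.18 and Egr2 highest at 5.19. Nr4a1 and Nr4a3 were at the ceiling in the circZbtb20 wild type, so their open points are bounds.

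Heat shock genes, which like Fos and Jun can be induced while tissue is taken apart and sorted, differed between the wild types. Of 9 measured genes 8 were higher and 0 lower in the Nr4a1 wild type, with a median difference of 2.65, on the array where Fosb, Batf, Jun and Fos were also higher. Other lists also differed between the wild types: 11 of 13 epithelial markers were higher in the Nr4a1 wild type, with a median difference of 2.22, and 6 of 13 myeloid markers were higher and 0 lower. Acinar markers of the pancreas were lower there in 12 of 13, with a median difference of -2.49. Between the wild types 8.48% of all genes were higher and 6.77% lower in the Nr4a1 wild type. Hspa1b, an inducible HSP70 gene, was at 10.10 in the circZbtb20 wild type, 8.76 in its knockout, 14.88 in the wild type of the Nr4a1 pair and 4.83 in that knockout. The part of handling and of these cell types in the AP-1 values was not tested. Of the 9, 4 were lower than both wild types and 0 higher in the Nr4a1 knockout, beside 15.7% and 28.4% of all genes. The circZbtb20 knockout had 3 higher and 2 lower, beside 22.3% and 14.4%. Dnajb1 was higher there by 5.02 and 1.09 and Hsp90aa1 by 4.80 and 2.11.

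**Figure D5:**
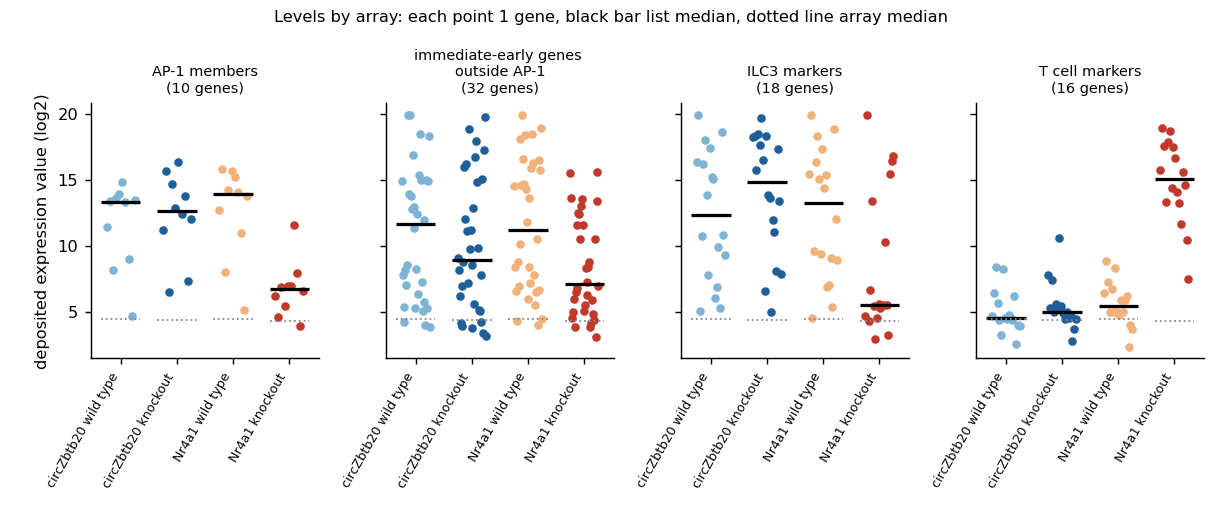
Deposited log2 values of the AP-1 genes, the other immediate-early genes, ILC3 markers and T cell markers on each array, 1 point per gene, with the list median (black bar) and the array median (dotted line). The AP-1 median is 6.74 in the Nr4a1 knockout and 12.68 to 13.93 on the other arrays. The T cell markers have a median of 15.12 in the Nr4a1 knockout and 4.56 to 5.49 on the other arrays.

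Markers of further cell types were counted on the same arrays. Lower than both wild types were 15.7% of all genes in the Nr4a1 knockout and 14.4% in the circZbtb20 knockout. Higher were 28.4% and 22.3%. In the Nr4a1 knockout 13 of 13 pancreatic acinar markers and 11 of 11 stromal and endothelial markers were lower than both wild types, with medians of 4.09 and 3.92 there, under that array's median of 4.34. So were 9 of 12 NK cell and ILC1 markers, 5 of 8 ILC2 markers, 6 of 13 myeloid markers, 7 of 10 epithelial markers and 2 of 5 B cell markers past the filter. In the circZbtb20 knockout 12 of 13 acinar markers, 7 of 12 NK cell and ILC1 markers, 5 of 8 ILC2 markers, 4 of 12 myeloid markers, 2 of 13 epithelial markers and 2 of 11 stromal and endothelial markers were lower than both wild types and 0 higher. The counts for epithelial and for stromal and endothelial markers were thus near the share of all genes lower, 14.4%. B cell markers gave 1 higher and 1 lower in the circZbtb20 knockout, and T cell markers 2 and 2 of 14. ILC3 markers were 10 of 18 higher and 6 lower in the circZbtb20 knockout, with a median of 14.84. The part of these cells in the AP-1 differences was not tested.

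The genes most like AP-1 across the arrays were sought by the root mean square distance between centred values over the 4 arrays. The nearest of 9368 candidates to the median profile of the 10 genes was Map3k14, which encodes the NF-kappa B inducing kinase, at a distance of 0.09. Its values were 14.14 and 14.34 in the circZbtb20 wild type and knockout and 14.89 and 8.43 in the Nr4a1 pair. Next were Prr13 at 0.15, Dusp5, which encodes a phosphatase that inactivates ERK, at 0.18, Maf at 0.21 and Mxd1, a partner of MAX, at 0.26. With 4 arrays such likeness is set mostly by the low value in the Nr4a1 knockout.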

How the data were processed

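Values came from 1 table with a column for each of 4 arrays. Per the submitters' processing notes, the authors used Affymetrix Power Tools and RMA, which corrects background, normalizes by quantiles and summarises probes; versions and settings were not stated there. The deposited values are log2 values with 2 decimals, as their range shows. Whether they keep the usual RMA scale, and why a ceiling of 19.93 exists, is not known, so log2 differences need not equal ratios of RNA. Rows were named through a probe table (19571 rows with 1 symbol, 2634 without), and the brightest of several rows of a gene was used.

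Differences were taken between each knockout and the wild type paired with it by title, between it and the remaining wild type, and between the wild types. A call needed a log2 difference of 1 or more in size, and the higher value had to reach its array's median. The limma fit used version 3.58.1 with Benjamini-Hochberg adjustment and the rest Python 3.11.15. The rule and the fit were run on simulated data with the same noise for all genes. That checks the code and says little about the spread of these arrays.

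The members and lists were chosen with earlier results of these data known. Named were all 10 members, up to 4 genes per list and comparison with the greatest difference from the own wild type among those called alike against both wild types, and the 5 nearest profiles among named protein-coding genes of at least median mean level and under the ceiling. Genes of the lists without a row were not analysed here. Alternatives were the reference wild type, the filter, the size of a call, quantile and cyclic loess normalization, median centring, averaging rows, leaving out genes at the ceiling, and limma.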

Additional observations from a re-analysis of the deposited data

How the results depend on the processing

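Of the 11 alternatives, 5 cannot move a gene's difference here (the filters, the size of a call, averaging rows and leaving out genes at the ceiling), and limma gives the same differences as the mean of both wild types. Over the other 5, each of the 10 genes kept its sign in the Nr4a1 knockout, and over all 11 the count lower stayed at 9 or 10 except with an absolute log2 difference of at least 2, where it was 8, and under limma, where 6 passed. The median difference was -6.03 against the other wild type. In the circZbtb20 knockout 49 of 50 gene values over those 5 kept their sign, and Fosb turned to -0.14 against the other wild type. Against that wild type 3 genes were higher, 5 were lower and the median was -0.84. With a size of at least 2, 3 were higher and 0 lower; under limma 0 were higher and 0 lower, which rests on 1 residual degree of freedom. The cause of the changes with the reference was not tested. Median centring shifted all genes by 0.17 in the Nr4a1 and 0.10 in the circZbtb20 comparison. No paired analysis was possible because each genotype has 1 array. Values near the array medians, as for Batf3, depend on background and are poorly measured.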
